A study of Mus musculus with 6 samples.

Results

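The Sox and Pou genes encode 2 families of developmental transcription factors. Sox proteins bind DNA through an HMG box that bends the helix, and Pou proteins bind through a paired POU-specific domain and homeodomain. Many members act together in pluripotent, neural and germ cells, while a few, such as Pou2f2 and Sox6, are known from blood cells. The members were all protein-coding genes of the RefSeq table on GRCm38 whose symbol begins with Sox or Pou followed by a digit. There were 35 such genes, 19 Sox and 16 Pou, of 21883 protein-coding genes on the numbered and sex chromosomes. One of them, Pou2af1, encodes a coactivator that binds Pou factors and has no POU domain.

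The base 5-hydroxymethylcytosine (5hmC) is made from 5-methylcytosine by TET enzymes, which use oxygen and alpha-ketoglutarate. It is known to mark enhancers and the bodies of active genes, and in stem cells also the surroundings of CpG-rich starts of silent developmental genes. Here 5hmC was mapped by immunoprecipitation of sonicated DNA with an antibody, followed by sequencing. The KO group comprised 2 libraries from Tet2-deleted cells, whose cultures were given 200 nM 4-hydroxytamoxifen for 4 days to activate CreER, a Cre recombinase that responds to the drug. The flox group comprised 2 libraries from Tet2fl/fl cells given ethanol. All 4 libraries came from Kit-enriched bone marrow of C57BL/6 Tet2fl/fl CreER mice, transduced with a retrovirus carrying AML1-ETO (a leukaemia fusion gene) and GFP, and sorted at passage 5 as GFP+, CD11b-, Gr1-, CD16/32+ immature myeloid cells. The comparison asks where 5hmC lies after loss of Tet2. The drug and active Cre were given to KO cultures alone and cannot be told apart from the deletion. The ages of the mice and whether replicates were separate cultures are not stated in the sources used, so the spread between libraries may be technical. Peak lists do not show whether Tet2 was deleted in a library. Peaks of 5hmC do not measure expression, and the labelled cell type was not checked from them.

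The authors' lists held 116539 and 122101 peaks in KO replicates 1 and 2, and 118727 and 118522 peaks in flox replicates 1 and 2. They covered 110302496 and 111138604 bp in KO, and 113346236 and 110295334 bp in flox. Read depth was unknown. For each gene, called length is the number of bases under peaks within the gene span and 5 kb on both sides. Peaks are called or not called in a mixture of cells, so fewer cells carrying 5hmC and less 5hmC per cell cannot be told apart. The intervals of 8 members also overlap another protein-coding gene (Pou2f1 with Cd247, Pou2f2 with Zfp574, Sox13 with Etnk2, Sox10 with Polr2f, Pou1f1 with Chmp2b, Pou5f1 with Tcf19, Pou5f2 with Fam172a, and Sox15 with Fxr2 and Mpdu1). Called bases in these intervals may lie in either gene, and those of Pou5f1 and Sox15 had none.

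Peaks lay at most Sox and Pou genes in these myeloid cells, and the total over the family was about the same in both groups. A peak lay at 21 members in every library, at 5 members in 2 or 3 libraries and at 5 members in 1 library. The same counts were not made over all genes, so these are descriptions of the members only. Sox3, Sox15, Sox18 and Pou5f1 (Oct4, the pluripotency factor) had no called base in any library. That is 11.4% of members, against 22.9% of all protein-coding genes. By library, 26 and 27 of the 35 members had a peak in KO, against 24 and 24 in flox, while 66.4% and 67.4% of all protein-coding genes had one in KO, against 68.0% and 67.6% in flox. Summed over the 35 members, called length was 176850 and 169206 bp in the KO libraries, against 174307 and 171193 bp in the flox libraries. The ranges overlap, and the ratio of the KO mean to the flox mean, after scaling each library to the same genome total, was 1.01. Much of the sum was Sox5, which held 44.4% and 43.5% of it in KO and 40.8% and 43.0% in flox. Without Sox5 the sums were 98392 and 95601 bp in KO, against 103266 and 97617 bp in flox, again with overlapping ranges.

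**Figure D1:**
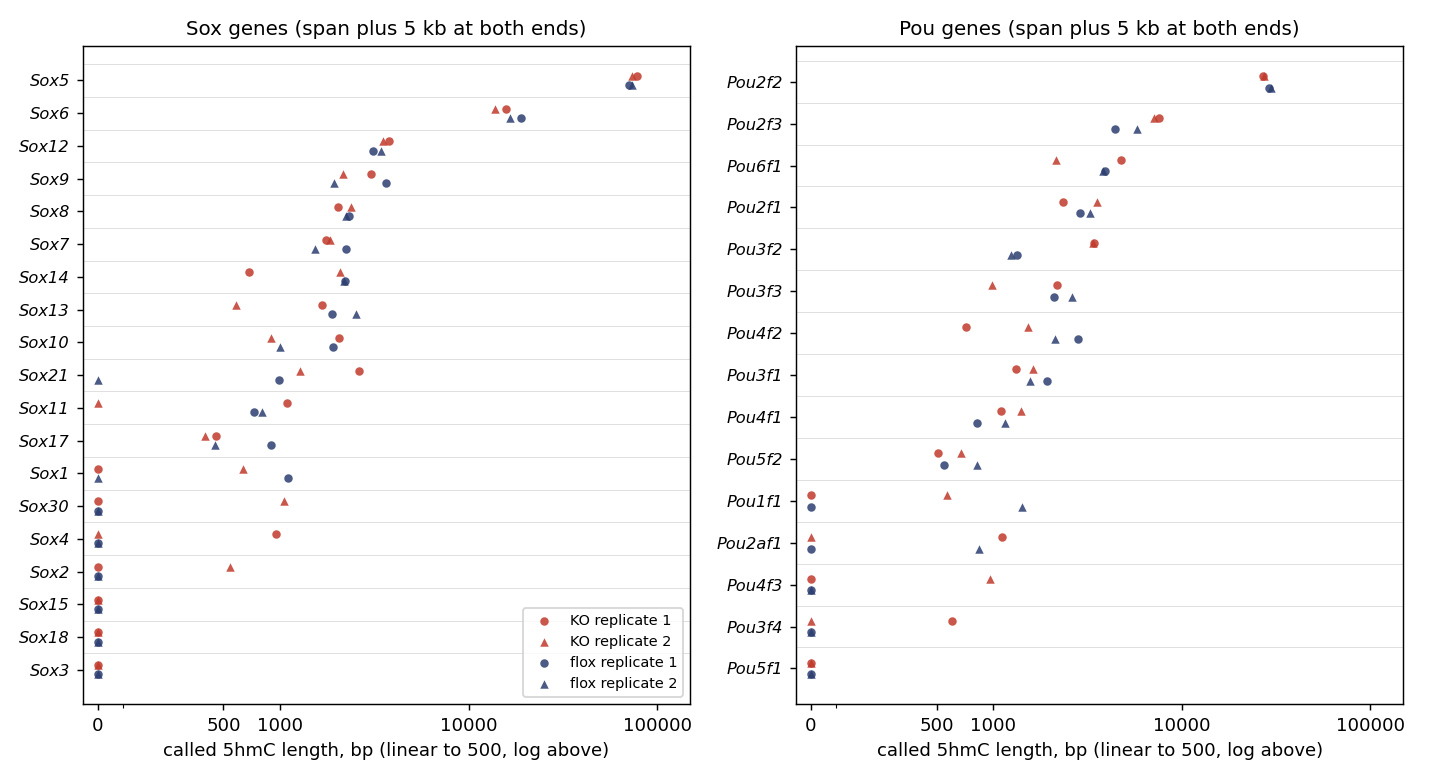
Called 5hmC length (bp, linear to 500 and logarithmic above) of the 19 Sox genes and 15 of the 16 Pou genes, by library. Red points are KO and blue points flox libraries, with circles for replicate 1 and triangles for replicate 2. Sox5 and Pou2f2 lead their families, and 4 members stay at 0 in all 4 libraries.

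Start sites of several Pou genes lay under 5hmC peaks. RefSeq promoter windows on GRCm38 were given for 25 members. The other 10, among them Sox3, Sox7, Sox9, Sox10, Sox17 and Sox18, had no window, so their starts were not examined. The 250 bases before the start (the most upstream one listed for the gene) were called, with at least 125 bases under peaks, in all 4 libraries at 4 of the 25 (16%), against 3.38% of 17491 protein-coding genes with a listed start. These 4 were Pou2f1 (Oct-1, expressed in most cells), Pou3f2 and Pou3f3 (neural factors Brn-2 and Brn-1) and Pou4f2 (Brn-3b, a factor of retinal ganglion cells). Their peaks covered all 250 bases in each library. The window of Sox1, a neural progenitor factor, was covered in KO replicate 2 and flox replicate 1 and in neither of the other libraries (2 libraries, 2.02% of all genes). At the other 20 members it was called in no library (89.6% of all genes). No member was called in 1 or 3 libraries, as 3.26% and 1.69% of all genes were. For Pou2f2 and Sox5 the listed start lies far inside the gene span, so the window says nothing of the upstream end of these genes. The windows of the 4 called genes are printed with those of 2 well-known members that were called in no library, Pou5f1 and Sox2. Capitals mark CpG dinucleotides, the usual site of methylation and hydroxymethylation, and each line runs 5′ to 3′ on the strand of the gene.
Pou3f2, chr4:22488367-22488616, minus strand: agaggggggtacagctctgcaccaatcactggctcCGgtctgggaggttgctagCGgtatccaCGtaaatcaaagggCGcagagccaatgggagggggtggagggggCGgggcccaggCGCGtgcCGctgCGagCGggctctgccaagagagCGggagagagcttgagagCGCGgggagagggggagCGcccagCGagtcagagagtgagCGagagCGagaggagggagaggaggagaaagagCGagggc
Pou3f3, chr1:42695518-42695767, plus strand: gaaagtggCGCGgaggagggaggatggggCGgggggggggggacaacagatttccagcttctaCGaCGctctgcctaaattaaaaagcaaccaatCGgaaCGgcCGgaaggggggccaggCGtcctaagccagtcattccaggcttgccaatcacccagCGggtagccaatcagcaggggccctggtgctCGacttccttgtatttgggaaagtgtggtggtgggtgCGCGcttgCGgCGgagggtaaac
Pou4f2, chr8:78436648-78436897, minus strand: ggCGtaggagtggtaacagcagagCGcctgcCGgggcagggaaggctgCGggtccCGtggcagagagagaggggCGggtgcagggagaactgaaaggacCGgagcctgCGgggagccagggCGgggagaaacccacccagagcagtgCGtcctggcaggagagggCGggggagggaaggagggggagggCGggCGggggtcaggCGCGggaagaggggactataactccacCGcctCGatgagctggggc
Pou2f1, chr1:166002635-166002884, minus strand: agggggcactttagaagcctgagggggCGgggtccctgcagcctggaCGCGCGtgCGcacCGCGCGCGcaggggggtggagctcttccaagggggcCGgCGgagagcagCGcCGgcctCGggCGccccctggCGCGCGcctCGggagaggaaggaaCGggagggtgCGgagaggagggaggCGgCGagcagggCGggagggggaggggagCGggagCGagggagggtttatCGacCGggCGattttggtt
Sox2, chr3:34649745-34649994, plus strand: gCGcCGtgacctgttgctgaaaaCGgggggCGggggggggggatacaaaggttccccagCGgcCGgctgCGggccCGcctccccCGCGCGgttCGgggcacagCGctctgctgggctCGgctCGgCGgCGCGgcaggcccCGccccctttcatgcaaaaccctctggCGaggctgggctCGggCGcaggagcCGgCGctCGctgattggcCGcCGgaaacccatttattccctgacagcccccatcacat
Pou5f1, chr17:35505782-35506031, plus strand: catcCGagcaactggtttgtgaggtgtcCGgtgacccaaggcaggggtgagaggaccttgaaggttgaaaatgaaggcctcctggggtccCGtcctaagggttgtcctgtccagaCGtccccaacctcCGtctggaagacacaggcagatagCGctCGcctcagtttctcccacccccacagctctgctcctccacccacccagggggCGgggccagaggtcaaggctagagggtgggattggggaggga

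The called windows were rich in CpG, but so were many that were not called. The 250 bases held 18 CpG at Pou3f2, 15 at Pou3f3, 17 at Pou4f2 and 29 at Pou2f1. The uncalled windows of Sox2 and Pou5f1 held 27 and 8. Over the 25 members the median was 17 CpG, against 10 over all 17491 genes, and the 20 members called in no library ranged from 3 to 47. The median was 17.5 for the 4 members called in all libraries, against 15 for these 20. Over all genes the medians of windows called in 4 and in 0 libraries were 13 and 9. The octamer motif of Pou factors (ATGCAAAT or, on the other strand, ATTTGCAT) was found in 1 of the 25 windows, at Sox12, and in 1.62% of all windows. The Sox core letters AACAAT or ATTGTT were found in 0 of 25 windows and in 8.62% of all windows, and the longer letters AACAAAG or CTTTGTT in 2 of 25 windows (Pou5f2 and Sox6) and in 4.37% of all. The Sox motifs begin alike but cannot match at the same place, and a match is only a description of the sequence.

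The strength of these start-site peaks differed greatly among the 4 genes. The authors' peak score (-log10 of the p-value, multiplied by 10, with 50 as the lowest listed) serves to describe, rank and filter peaks. Scores of different libraries are given side by side with no change read from them. At Pou3f2 the region over the start (22487873 to 22489406) scored 389.1 and 426.1 in KO and 354.3 and 479.0 in flox, in the 96.4 and 97.3 percentiles of the KO lists and the 95.7 and 98.1 percentiles of the flox lists. At Pou3f3 the region (42693850 to 42696222) scored 77.3 and 90.5 in KO and 54.5 and 88.2 in flox. At Pou4f2 (78436191 to 78438118) the scores were 55.0 and 86.1 in KO and 112.6 and 79.6 in flox. Pou2f1 had 58.3 and 115.4 in KO and 120.8 and 50.4 in flox for the region over its start (166002004 to 166003411). Only the window of Pou3f2 stayed called in all 4 libraries when peaks needed a score of at least 100, that is 1 of 25 members and 2.08% of all genes.

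Around listed starts the members as a group had more called bases than genes at large, in both groups of cells. In the 500 bp before the start, 18.05% and 19.0% of bases were called in the KO libraries, against 21.4% and 17.0% in the flox libraries, over the 25 members. Over all genes the same bin had 5.99% and 6.45% in KO, against 6.72% and 6.09% in flox. Beyond 3 kb on either side the means of the members were at most 5.64% in KO and 6.64% in flox. With 25 genes, a bin of the profile rests on a few peaks: between 1500 and 2000 bp downstream the KO libraries had 15.8% and 8.23%, against 8.38% and 3.06% in flox, and these ranges overlap narrowly.

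**Figure D2:**
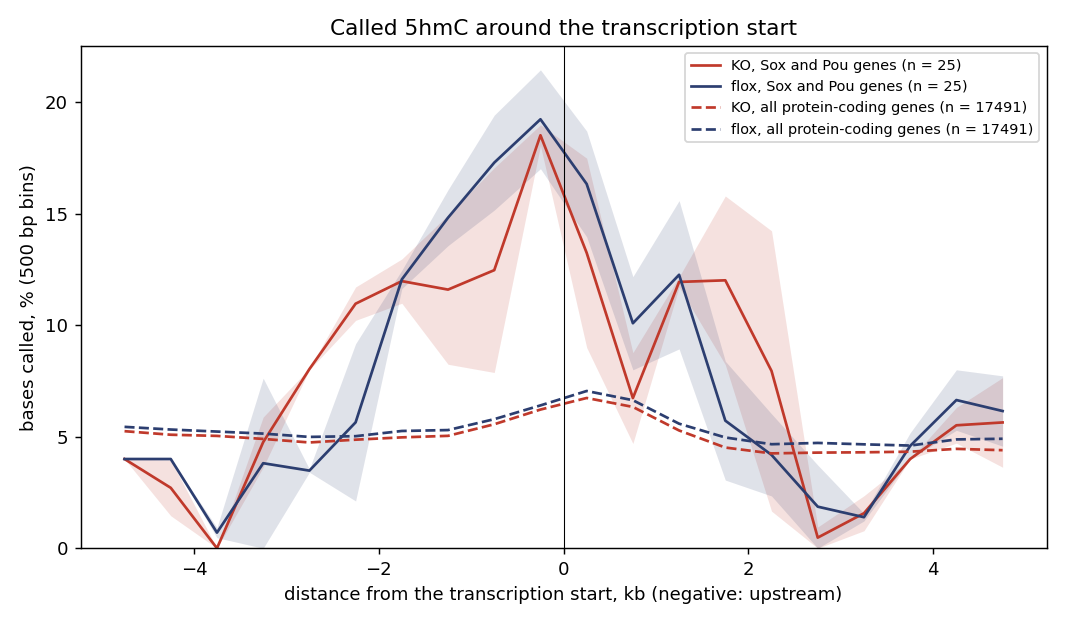
Share of bases under peaks (%) in 500 bp bins by distance from the transcription start (kb, negative upstream), for 25 Sox and Pou genes (solid) and 17491 protein-coding genes (dashed). Red is KO and blue flox, lines are means of 2 libraries, and the shading spans both libraries for the members. In the 500 bp before the start the members' means are 18.5% in KO and 19.2% in flox, against 6.22% and 6.40% for all genes.

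The split of called bases between the gene span and the 5 kb beside it followed the lengths of both. Of the 35 members, 24 are shorter than 10 kb. In these 24, 32.9% and 33.8% of called bases lay inside the gene span in KO, against 33.7% and 31.6% in flox, and the span made up 30.5% of the intervals. In the 11 longer members the share inside was 94.7% and 95.8% in KO, against 95.5% and 94.7% in flox, and the span made up 95.3% of the intervals. The median short member had 6.20% of its interval called, against 1.72% for 7924 protein-coding genes of the same length class. For all lengths the medians were 4.41% for members and 3.23% for all genes. Levels are compared between genes here per length of interval.

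No Sox or Pou gene passed the test for a difference in called length between KO and flox cells. The test was limma on log2(bp + 500) after equalising the libraries' totals, over the 14159 genes whose mean reached 500 bp. For genes with short called length the added 500 bp makes a difference smaller than the true fold. Of the 35 members, 24 reached that mean and were tested, and 11 were not. Limma called 0.00% of all tested genes and none of the 24 members at an adjusted p under 0.05. Without adjustment, 3 of the 24 members had p under 0.05 (6.14% of all tested genes, 869 in number). Pou3f2 and Pou2f3 had more called length in KO (1.84% of all genes in this direction), and Pou4f2 had less (4.30%). Among the 24 members, 7 differences were above 0 (45.4% of all genes) and 17 below (54.6% of all genes), with a median of -0.08, against -0.04 over all tested genes. Both KO libraries lay above both flox libraries at 4 members (14.6% of all genes) and below them at 5 members (20.7% of all genes), so 9 of 24 members had groups that did not overlap (35.2% of all genes).

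**Figure D3:**
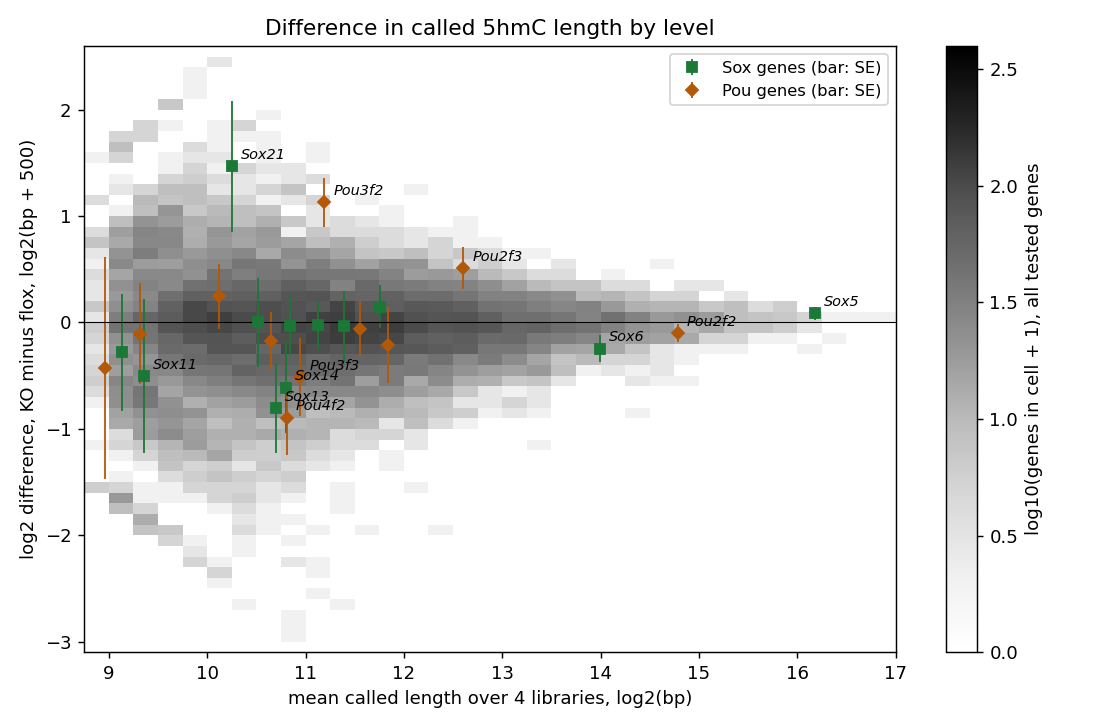
Log2 difference in called length (KO minus flox, on log2(bp + 500)) against mean called length (log2 bp). The grey cells count all 14159 tested genes, and points are the 12 tested Sox genes and 11 of the 12 tested Pou genes with their standard error. Pou3f2 and Sox21 stand highest at 1.13 and 1.47, while the long genes Sox5 and Pou2f2 lie near 0.

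Of the Pou class 3 genes, which act in neurons and glia, Pou3f2 had the smallest p of all members. Pou3f2 (chromosome 4, 22482095 to 22488366) had 3405 and 3362 bp in KO, against 1332 and 1246 bp in flox. The groups do not overlap, and each is tight. The difference was 1.13 (log2, SE 0.23, limma adjusted p = 0.773). It came from 2 regions that were called in both KO libraries and in neither flox library, on either side of the strong peak over the start. The region inside the gene (22485862 to 22487141) scored 52.3 and 50.8 in the KO libraries. The one upstream (22490342 to 22491564) scored 70.3 and 70.5. The scores of the region inside the gene are near the lowest listed score of 50, at the 3.34 and 0.94 percentiles of the KO lists. Those of the upstream region are at the 27.6 and 26.5 percentiles. When peaks scoring under 100 were left out the difference was 0.09. With 20 kb at both ends it was 0.47. Of the other class 3 genes, Pou3f1, a Schwann cell factor, had 1321 and 1632 bp in KO, against 1920 and 1561 bp in flox, all in 1 region. Pou3f3 had 2173 and 981 bp in KO, against 2105 and 2631 bp in flox, so its groups overlap. Pou3f4, a factor of the inner ear, had 603 bp in KO replicate 1 and none in the other libraries.

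In Pou class 2, the octamer factors, the pattern differed from gene to gene. Pou2f3 (chromosome 9, 43123927 to 43205755), the factor of tuft cells, had 7556 and 7168 bp in KO, against 4413 and 5775 bp in flox. Both KO libraries were higher, and the difference was 0.51 (SE 0.20, limma adjusted p = 0.807), or 0.32 without flox replicate 1. Of its 10 regions, 4 were called in all libraries and 2 in both KO libraries alone (43177546 to 43178248 and 43194097 to 43195085). Those 2 scored 55.0 and 61.6, and 68.7 and 55.6, in KO replicates 1 and 2. The strongest region called in all libraries (43128774 to 43130312) scored 117.8 and 142.6 in KO, against 184.3 and 95.1 in flox. The difference turned to -0.25 when peaks scoring under 100 were left out. Pou2f1 (chromosome 1, 165865150 to 166002749) had 2336 and 3568 bp in KO, against 2902 and 3242 bp in flox, with overlapping groups (-0.06, SE 0.26, limma adjusted p = 0.980). Of its regions called in all 4 libraries, the one at 165899849 to 165900429, inside the gene, scored 92.1 and 145.3 in KO, against 128.5 and 94.5 in flox. The coactivator gene Pou2af1 had 1113 bp in KO replicate 1 and none in KO replicate 2, against none in flox replicate 1 and 835 bp in flox replicate 2.

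Pou2f2 (Oct-2, best known from B cells; chromosome 7, 25087350 to 25180797) was the member most densely covered by 5hmC. It had 26829 and 27457 bp in KO, against 29084 and 29766 bp in flox. Both KO libraries were lower, by little (-0.10, SE 0.08, limma adjusted p = 0.874). On average 27.3% of its interval was called, which put it at the 99.4 percentile of all protein-coding genes. Of its 21 regions, 17 were called in all 4 libraries. The widest, at 25177510 to 25182170, covers the upstream end of the gene, which is transcribed from the minus strand. It was called over 4225 and 4489 bp in KO, against 4552 and 4596 bp in flox, with scores of 461.5 and 452.2 in KO and 912.0 and 586.1 in flox. Another dense stretch lay 60 to 70 kb from the low-coordinate end, where 60.2% and 60.7% of bases were called in KO, against 57.1% and 65.3% in flox. Between them and the low-coordinate end, the bin from 40 to 50 kb had 3.47% and 4.27% in KO, against 1.93% and 4.25% in flox.

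The longest member, Sox5 (chromosome 6, 143828425 to 144782287), held the most called length. Sox5, Sox6 and Sox13 form group D, whose products lack a transactivation domain of their own. Sox5 and Sox6 act in cartilage, and Sox6 also in red cell precursors. Sox5 had 84 and 81 peaks in KO, against 77 and 82 in flox, and 78458 and 73605 bp in KO, against 71041 and 73576 bp in flox. As deposited the lower KO and higher flox values nearly coincide, and after scaling the groups overlap (0.09, SE 0.06, limma adjusted p = 0.867). Of its 109 regions, 54 were called in all 4 libraries. Its strongest shared region (144320753 to 144322213) scored 502.8 and 616.9 in KO, against 450.5 and 612.5 in flox. Coverage ran through the whole gene: 50 kb bins averaged 3.55% to 14.5% called. Inside Sox5, 2 regions were called in both KO libraries alone (144487364 to 144488311, and 144582641 to 144584405), with scores of 50.7 and 56.2, and 54.0 and 114.3.

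Sox6 (chromosome 7, 115470872 to 116040776) was sparser, and its KO libraries had less called length than either flox library. It had 15759 and 13773 bp in KO, against 18949 and 16582 bp in flox (-0.25, SE 0.13, limma adjusted p = 0.831). The difference was -0.15 without KO replicate 2 and -0.0174 when peaks scoring under 100 were left out. Only 7 of its 33 regions were called in all 4 libraries. The strongest of these (116034116 to 116035537), with scores of 648.5 and 644.6 in KO, against 548.3 and 574.1 in flox, lay at the upstream end of the gene. The last bin of the gene there had 11.1% and 12.7% called in KO, against 15.9% and 10.6% in flox, while the lowest 50 kb bin averaged 0.59%. Sox6 was the member with both kinds of genotype-specific region: 1 called in KO alone (115598889 to 115600077) and 2 called in flox alone (115717039 to 115718198, and 115808655 to 115809370). The KO-only region scored 68.2 and 140.2 in KO. The flox-only regions scored 86.7 and 73.5, and 53.5 and 141.0, in flox. Sox13 (chromosome 1, 133382300 to 133424459), known in T cells, had 1662 and 580 bp in KO, against 1888 and 2537 bp in flox (-0.81, SE 0.42, limma adjusted p = 0.831). The groups do not overlap, but the difference was -1.31 without KO replicate 1 and -0.30 without KO replicate 2.

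**Figure D4:**
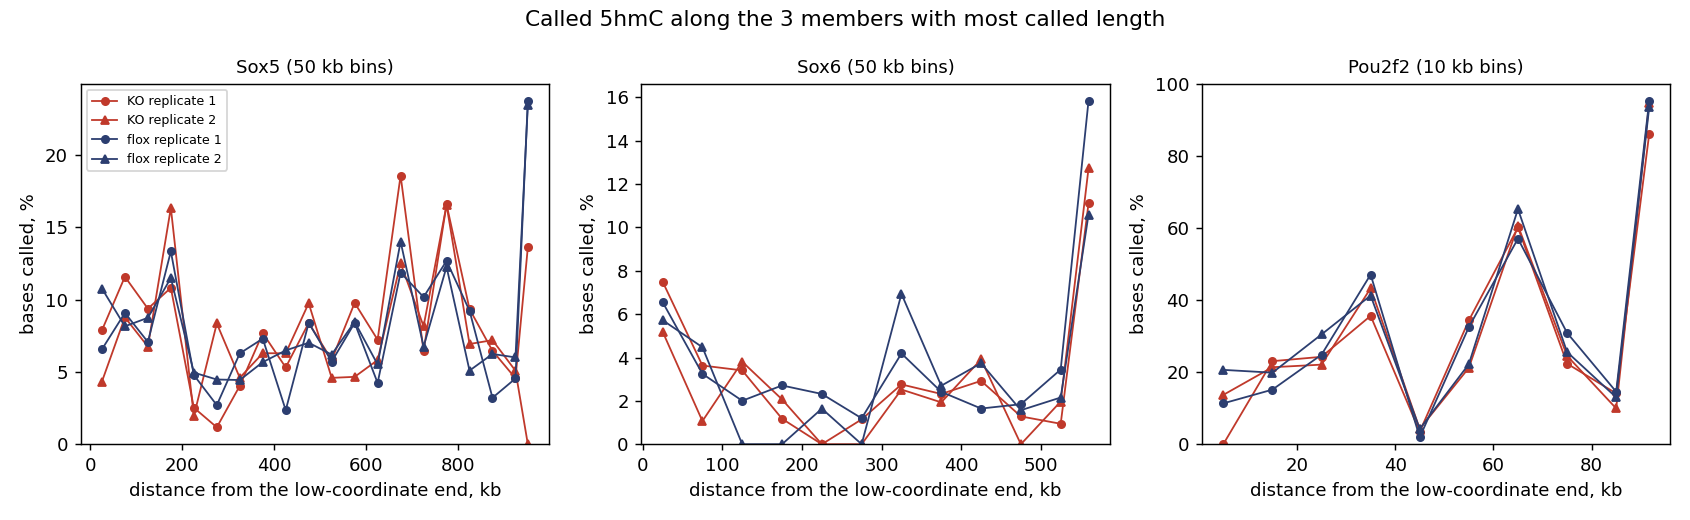
Share of bases under peaks (%) along Sox5, Sox6 and Pou2f2, by distance from the low-coordinate end of the gene (kb), in bins of 50, 50 and 10 kb. The last bin of each gene is shorter. Red lines are KO and blue lines flox libraries, with circles for replicate 1 and triangles for replicate 2. In Pou2f2 all 4 libraries are high in the bin from 60 to 70 kb, with 60.8% called on average, and low in the bin from 40 to 50 kb, with 3.48%.

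Group B of the Sox genes held members of opposite direction and members with little or no called 5hmC. Sox21 and Sox14 encode repressors of neural progenitor genes. Sox21 (chromosome 14, 118233233 to 118237030) had 2622 and 1282 bp in KO, against 981 and 0 bp in flox (1.47, SE 0.61, limma adjusted p = 0.824). One region beside it was called in KO replicate 1 alone and the other in both KO libraries and flox replicate 1. Without flox replicate 1 the difference was 2.24, and without flox replicate 2 it was 0.69. When peaks scoring under 100 were left out it was 0.13. Sox14 (chromosome 9, 99874106 to 99876170) had 683 and 2089 bp in KO, against 2212 and 2174 bp in flox (-0.61, SE 0.42, limma adjusted p = 0.865). Its lower value rests on KO replicate 1, without which the difference was -0.05. It was -1.17 without KO replicate 2 and -0.11 with 20 kb at both ends. All its called bases lay beside the gene and none inside it. Sox1, Sox2 and Sox3, activators that keep neural progenitors undifferentiated, were not tested: Sox1 had 0 and 637 bp in KO, against 1100 and 0 bp in flox, Sox2 had 0 and 542 bp in KO, against 0 and 0 bp in flox, and Sox3 had none.

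Pou class 4 genes specify sensory neurons. Pou4f2 (chromosome 8, 78433009 to 78436647) had 721 and 1524 bp in KO, against 2812 and 2118 bp in flox. Both KO libraries were lower, with a difference of -0.89 (SE 0.35, limma adjusted p = 0.807) and -0.53 without KO replicate 1. With 20 kb at both ends it was -0.37. No region here was specific to a genotype: the region over the start was called in all 4 libraries but was narrower in KO (721 and 847 bp) than in flox (1928 and 1183 bp), and the region inside the gene was missing in KO replicate 1. Pou4f1 had 1094 and 1402 bp in KO, against 820 and 1150 bp in flox. Pou4f3, a factor of hair cells of the ear, had 0 and 959 bp in KO and none in flox.

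**Figure D5:**
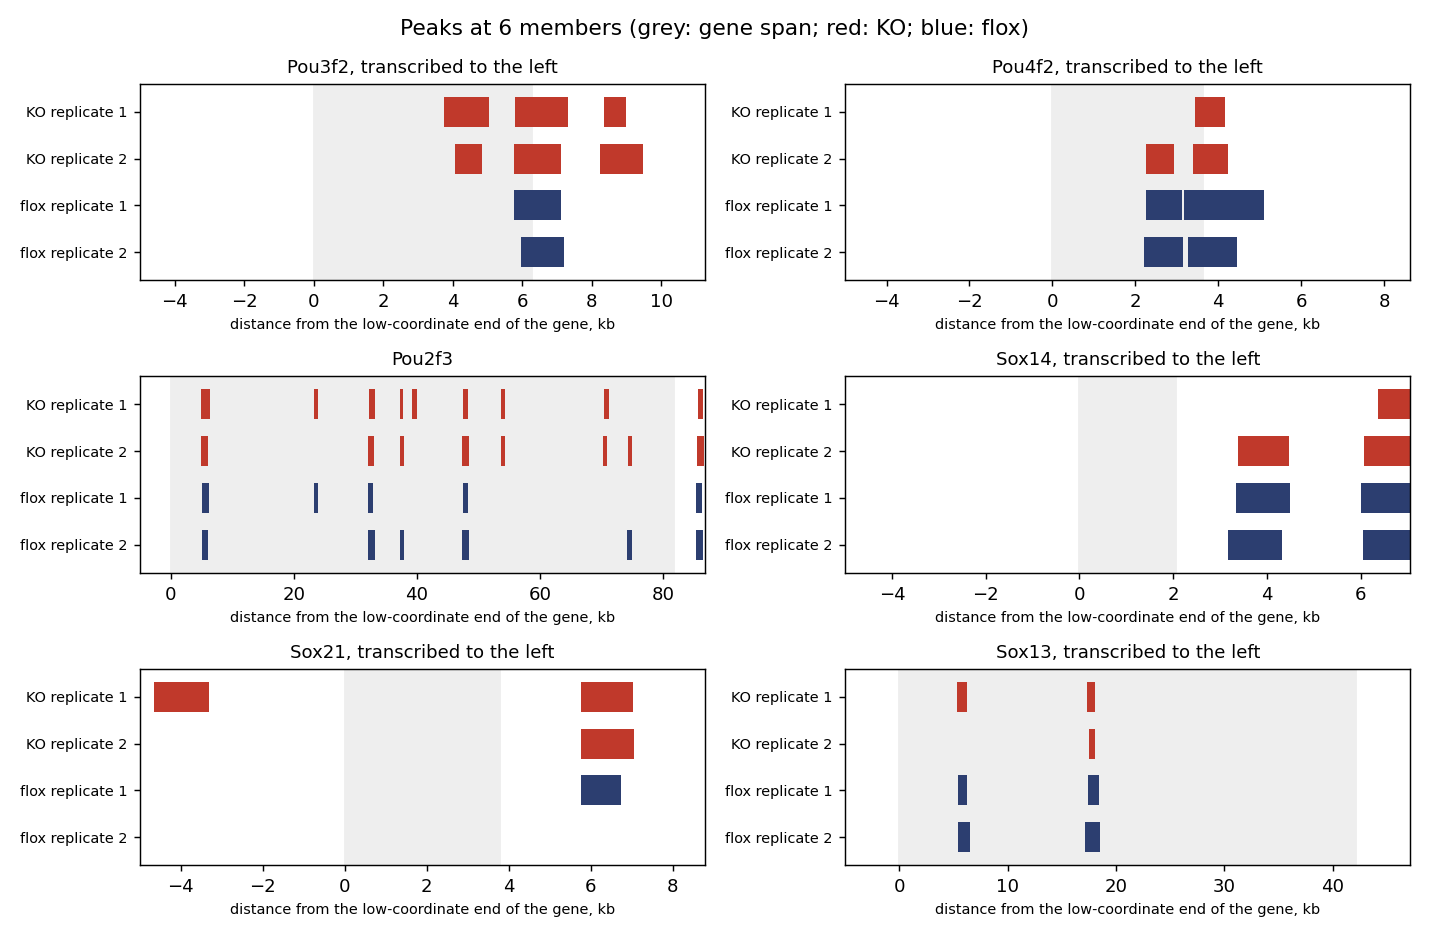
Peaks of each library at the 6 members with non-overlapping groups, a mean of at least 1000 bp and a difference of at least 0.5 in size, by distance from the low-coordinate end of the gene (kb). Grey marks the gene span, red bars KO peaks and blue bars flox peaks. Pou3f2 has 3 peaks in each KO library and 1 in each flox library, and Sox14 has its peaks upstream of the gene.

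Sox12, Sox9 and Sox8 were short genes with a large covered share of their intervals and similar mean levels in both groups. Sox12 (chromosome 2, 152393611 to 152398046), a group C gene, had 3769 and 3517 bp in KO, against 3104 and 3441 bp in flox, in 3 regions called in all 4 libraries. On average 24.0% of its interval was called, the 98.9 percentile of all genes. Its region inside the gene (152395080 to 152397224) scored 243.5 and 213.6 in KO, against 323.8 and 346.9 in flox. Both KO libraries were higher by little (0.15, SE 0.20, limma adjusted p = 0.927), and the sign turned with 5 of the other settings. Sox9 (chromosome 11, 112782210 to 112787757), a master factor of cartilage and testis, had 3040 and 2159 bp in KO, against 3645 and 1934 bp in flox (-0.04, SE 0.33, limma adjusted p = 0.994). Its region inside the gene (112784621 to 112785816) scored 112.7 and 91.5 in KO, against 99.4 and 116.5 in flox. Another peak ran across the low-coordinate end of Sox9 in every library, with scores of 61.2 and 109.5 in KO and 105.0 and 193.2 in flox. Sox9 had no listed start, so this peak is not among the start windows above. Sox8 (chromosome 17, 25565893 to 25570686), its close relative, had 2018 and 2387 bp in KO, against 2315 and 2228 bp in flox (-0.03, SE 0.23, limma adjusted p = 0.993). At Sox9 17.3% and at Sox8 15.1% of the interval was called. All called bases of Sox8 lay beside the gene and none inside it. The third group E gene, Sox10, a neural crest factor, had 2044 and 896 bp in KO, against 1905 and 1001 bp in flox.

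Of Pou class 6, factors of the brain, Pou6f1 (chromosome 15, 100575318 to 100600061) had 4751 and 2154 bp in KO, against 3932 and 3798 bp in flox (-0.21, SE 0.36, limma adjusted p = 0.949). The KO libraries here lie on both sides of the flox libraries. Its strongest shared region (100600731 to 100602201), just upstream of the gene, scored 90.5 and 201.4 in KO, against 87.0 and 103.4 in flox.

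The remaining members had at most 4 peaks in any library. In group F, factors of blood vessels, Sox7 had 1745 and 1834 bp in KO, against 2246 and 1523 bp in flox. Sox17, which is also needed by fetal blood stem cells, had 472 and 425 bp in KO, against 892 and 466 bp in flox, in 1 region called in every library. In group C, Sox11 had 1083 and 0 bp in KO, against 731 and 806 bp in flox, and Sox4, a factor of lymphocyte development, had 954 and 0 bp in KO and none in flox. The pituitary factor Pou1f1 had 0 and 571 bp in KO, against 0 and 1428 bp in flox, and the germ cell gene Pou5f2, which lies inside Fam172a, had 510 and 674 bp in KO, against 550 and 822 bp in flox. Sox30, a gene of sperm formation, had 0 and 1050 bp in KO and none in flox. Over all protein-coding genes, 66.4% and 67.4% had a peak in the KO libraries, against 68.0% and 67.6% in the flox libraries. How many of all genes were called in a single library was not counted. The 5 members called in a single library (Sox2, Sox4, Sox30, Pou3f4 and Pou4f3) were each called in a KO library. No test applied to them, no gain in KO is read from them, and their peaks scored 61.6 to 71.0.

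Over all members, 247 regions were formed by merging overlapping peaks of the 4 lists, and 117 of them (47.4%) were called in all 4 libraries, against 39.5% of all regions. Regions called in both KO libraries alone numbered 8 of 247 (3.24%), against 3.00% of all regions, and 7 of them lay in Pou3f2, Pou2f3, Sox5 and Sox6. Regions called in both flox libraries alone numbered 2 (0.81%), against 2.96% of all regions, both in Sox6. Pou3f2, Pou2f3, Sox5 and Sox6 had more than 1 region called in a single genotype. When peaks scoring under 100 were left out, the numbers were 5 KO-only and 5 flox-only of 146 regions, each 3.42%, against 3.56% and 2.94% of all regions.

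In 3 other lists of genes, related by domain, partnership or role, limma made no call either. Of 21 other HMG box genes, 15 were tested, with 4 differences above 0 and 11 below (median -0.17). Of 22 partners of Sox and Pou factors in pluripotency, 14 were tested, with 8 above 0 and 6 below (median 0.14). Of 50 other developmental transcription factors of neural and body plan tissues, 39 were tested, with 19 above 0 and 20 below (median -0.03). Limma called 0 genes in each list at an adjusted p under 0.05 (0.00% of all tested genes). In the same order, 2, 0 and 3 genes stood at an unadjusted p under 0.05 (6.14% of all tested genes). Over all tested genes, 45.4% of differences were above 0 and 54.6% below, with a median of -0.04.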

How the data were processed

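The authors deposited 1 list of 5hmC peaks per library, in BED format on GRCm38 (mm10), for 2 KO and 2 flox libraries. The labels also name an IgG control and an input library, which were not analysed here. MACS 1.4, Bowtie and CASAVA 1.8 are named in the submitters' processing notes, without settings. The deposited score of each peak equals -log10 of the deposited p-value multiplied by 10, within 0.02, and the lowest was 50. The lists hold no read counts, so depth is unknown and no interval from counts could be given.

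Called bases were summed per protein-coding gene over the span and 5 kb at both ends, scaled to 1 genome total per library and put on a log2(bp + 500) scale. The test was limma's moderated test (version 3.58.1 in R 4.3.3, robust, with a trend), without a replicate block. The threshold was a Benjamini-Hochberg adjusted p of 0.05 over the 14159 genes whose mean reached 500 bp. In simulated data for this comparison (14159 genes), 37% of 100 genes changed by 1 on the log2 scale were called. Of 100 genes changed by 3, 82% were called, and there were 8 false calls. Whether measured genes would be called at these rates was not tested. In the measured data limma called 0 genes, and Pou3f2, with a difference of 1.13 (SE 0.23), had a limma adjusted p of 0.773. An exact test of a single value, 2 against 2 libraries, cannot go below p = 0.333. Regions were formed by merging peaks of the 4 lists that overlap by 1 bp. Start windows and sequences were taken from RefSeq promoters (GRCm38.p6), which matched 25 of 35 members by gene identifier.

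The members and lists were chosen with earlier results of these data known. Members described library by library were the 10 with the largest mean called length, the 5 with the largest called share of the interval, and those with a mean of at least 1000 bp, groups that do not overlap and a difference of at least 0.5. Other members are given by their levels. One member is counted in the totals but its values are not reported here. Alternatives covered scaling, pseudocount, filter, peak score, interval, peak number, replicate block and each library left out. Those for start windows were added after seeing the data.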

Additional observations from a re-analysis of the deposited data

How the results depend on the processing

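Limma called 0 genes in all 15 alternatives, and the KO over flox ratio of the summed length stayed between 0.98 and 1.04 in all 10 of its alternatives. Settings changed which members were tested, and with it the counts by direction. Members above and below 0 were 7 and 17 of 24. They were 13 and 18 of 31 without a filter, 4 and 7 of 11 with a filter at 2000 bp, 6 and 9 of 15 with scores of at least 100, 5 and 11 of 16 with the gene span alone, and 12 and 21 of 33 with 20 kb at both ends. With the 50000 highest scored peaks the balance turned, to 9 above and 6 below of 15. With 1 library left out, 8 to 11 were above and 13 to 16 below. The median difference, -0.08, was -0.0424 with a pseudocount of 2000 bp, -0.0373 both without a filter and with a filter at 2000 bp, and -0.0383 with 20 kb. It was -0.14 with scores of at least 100, 0.0694 with the 50000 highest scored peaks, -0.0062 with peak numbers, and -0.23 to -0.0067 with 1 library left out. Scores of at least 100 gave 5 KO-only and 5 flox-only regions and 1 start window called in all 4 libraries.

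Among the named members, signs turned as follows, with no call in any setting. With scores of at least 100 the differences were 0.77 for Pou2f1, -0.25 for Pou2f3, -0.29 for Sox12 and 0.13 for Sox8. With the 50000 highest scored peaks they were 0.80 for Pou2f1, 0.0135 for Pou2f2, -0.78 for Pou2f3, 1.64 for Pou6f1, -0.26 for Sox12, 0.25 for Sox6 and 0.16 for Sox8. With peak numbers they were -0.17 for Sox12 and 0.20 for Sox8. With 20 kb they were -0.0047 for Sox12 and 0.0087 for Sox8, and with the gene span alone -0.0569 for Sox12. With 1 library left out the ranges were -0.31 to 0.20 for Pou2f1, -0.71 to 0.28 for Pou6f1, -0.12 to 0.0663 for Sox8 and -0.40 to 0.33 for Sox9. Each of the 14 named members moved by over 1.5 times in at least 1 alternative. The cause was not tested.

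Replicate numbers came from the labels. Deviations from the group means had a correlation of 0.0068 between KO replicate 1 and flox replicate 1. This shows no shared deviation in called length, but it cannot show whether the cultures were paired. With the replicate block limma called 0 genes, 882 stood at an unadjusted p under 0.05, and members above and below 0 stayed at 7 and 17. Each group has 2 libraries, and region classes need both, so they have no value with a library left out.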
